A study of Mus musculus with 6 samples.

Results

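The genes described here are 10 genes of enamel formation, *Amelx*, *Ambn*, *Enam*, *Amtn*, *Odam*, *Mmp20*, *Klk4*, *Fam20a*, *Fam20c* and *Fam83h*. They were taken by symbol from a table of 55487 genes, and all 10 were found once in it. The libraries were made from dental epithelium dissected from the mandibular first molar of mice at postnatal day 2.5 (PN2.5), when Hertwig's epithelial root sheath starts to form. The 3 control libraries came from Wnt10aflox/flox mice, which carry the floxed allele without Cre. The 3 cKO libraries came from K14-Cre;Wnt10aflox/flox mice, whose Cre is under the keratin 14 promoter, so that *Wnt10a*, a ligand of canonical Wnt signaling, is meant to be deleted in epithelial cells. A library stands for 1 pool of epithelium from several molars, a number on which the sources differ, and the labels do not say which animals went into a pool. The p-values therefore measure the spread between these pools. *Wnt10a* was 56.0, 51.2 and 57.9 TPM in control pools 1, 2 and 3, against 22.7, 21.8 and 32.2 TPM in cKO pools 1, 2 and 3, without overlap.

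Enamel is laid down by ameloblasts, the epithelial cells that differentiate from the inner enamel epithelium. In the secretory stage these cells export a protein matrix, of which amelogenin (*Amelx*) is the most abundant component, together with ameloblastin (*Ambn*) and enamelin (*Enam*). The protease enamelysin (*Mmp20*) cuts these proteins as they are secreted, and kallikrein-related peptidase 4 (*Klk4*) degrades the rest of the matrix later, in the maturation stage. Amelotin (*Amtn*) and odontogenic ameloblast-associated protein (*Odam*) belong to the basal lamina of maturation-stage ameloblasts. *Fam20c* encodes the kinase that phosphorylates secreted proteins in the Golgi, *Fam20a* encodes a pseudokinase that activates it, and *Fam83h* encodes an intracellular protein linked to the keratin cytoskeleton. Defects in most of these genes cause amelogenesis imperfecta, an inherited disorder of enamel.

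In the GENCODE annotation of GRCm38, 4 of the matrix genes lie on the forward strand of chromosome 5 within 621 kb. *Odam* spans 87885029 to 87894174, *Amtn* 88376108 to 88385916, *Ambn* 88455991 to 88468531 and *Enam* 88487975 to 88506049. The stretch holds 10 other protein-coding genes, of which 8 were listed at 0 in every library. *Csn3*, a casein of milk, was at 2.71 to 8.45 TPM, and *Prol1* reached 0.06 TPM in 1 library. *Amelx* lies on the reverse strand of the X chromosome from 169176114 to 169187200, inside the bounds of *Arhgap6*, a gene on the other strand that was at 0.43 to 1.26 TPM. *Mmp20* lies on chromosome 9 from 7628231 to 7674979, *Klk4* on chromosome 7 from 43881160 to 43885804, *Fam20a* on chromosome 11 from 109669749 to 109722279, *Fam20c* on chromosome 5 from 138754514 to 138810077, and *Fam83h* on chromosome 15 from 76001093 to 76014336. *Fam83h* overlaps *K230010J24Rik* on the other strand, at 3.99 to 7.52 TPM, and whether the counting used strand is not given in the sources used here. Reads of that overlap, and of the antisense gene *AV064505* over *Mmp20* at up to 1.94 TPM, may therefore not be told apart from the enamel gene.

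The promoter windows of the 5 matrix genes are shown because they share a short run of letters in nearly the same place. Each window is RefSeq sequence of GRCm38.p6 and runs from 250 bases before to 50 bases after the transcription start, read 5′ to 3′ on the gene's strand. The capitals mark GATTGG, the reverse complement of CCAATC, which holds the CCAAT box, the motif bound by the nuclear factor Y complex.
Amelx (chrX:169187160-169187459, reverse strand): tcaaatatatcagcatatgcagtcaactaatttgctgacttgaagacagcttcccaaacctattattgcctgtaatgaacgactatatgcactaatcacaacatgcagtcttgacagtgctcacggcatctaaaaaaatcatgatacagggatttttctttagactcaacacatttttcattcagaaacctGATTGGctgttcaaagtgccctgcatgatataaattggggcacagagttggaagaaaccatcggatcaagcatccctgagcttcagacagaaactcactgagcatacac
Ambn (chr5:88455741-88456040, forward strand): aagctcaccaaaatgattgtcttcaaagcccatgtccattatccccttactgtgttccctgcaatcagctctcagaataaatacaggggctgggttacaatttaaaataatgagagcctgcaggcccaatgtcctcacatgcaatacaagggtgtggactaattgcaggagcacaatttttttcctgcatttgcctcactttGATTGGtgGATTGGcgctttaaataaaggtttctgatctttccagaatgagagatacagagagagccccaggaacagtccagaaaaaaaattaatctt
Enam (chr5:88487725-88488024, forward strand): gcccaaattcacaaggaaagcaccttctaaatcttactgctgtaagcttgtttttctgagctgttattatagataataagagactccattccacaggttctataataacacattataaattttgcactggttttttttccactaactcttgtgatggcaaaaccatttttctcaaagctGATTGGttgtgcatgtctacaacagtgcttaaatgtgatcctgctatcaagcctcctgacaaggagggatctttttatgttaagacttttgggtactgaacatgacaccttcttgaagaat
Amtn (chr5:88375858-88376157, forward strand): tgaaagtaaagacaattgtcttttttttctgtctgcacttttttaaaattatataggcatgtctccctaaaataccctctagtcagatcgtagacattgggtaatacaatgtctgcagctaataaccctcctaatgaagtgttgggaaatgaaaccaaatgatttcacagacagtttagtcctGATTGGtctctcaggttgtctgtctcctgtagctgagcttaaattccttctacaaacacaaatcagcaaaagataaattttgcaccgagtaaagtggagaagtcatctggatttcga
Odam (chr5:87884760-87885059, forward strand): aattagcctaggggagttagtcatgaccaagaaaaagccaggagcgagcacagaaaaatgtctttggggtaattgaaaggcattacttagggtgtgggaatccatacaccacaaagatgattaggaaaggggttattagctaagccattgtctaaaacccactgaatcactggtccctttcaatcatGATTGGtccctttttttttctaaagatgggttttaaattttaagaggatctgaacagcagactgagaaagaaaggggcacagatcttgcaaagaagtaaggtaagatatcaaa

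With the transcription start as position 1 and no position 0, the run lies at positions -59 to -54 in *Amelx*, -71 to -66 in *Enam*, -67 to -62 in *Amtn* and -63 to -58 in *Odam*. *Ambn* holds it at -48 to -43 and again at -40 to -35. CCAATC on either strand is present in 16.1% of all 32851 promoter windows, and in 7 of the 9 windows found for these genes. The other 2 are *Fam20a*, at -145 to -140 and at -71 to -66, and *Fam20c*, at -73 to -68. The shorter CCAAT is present in 37.4% of all windows and in the same 7. The CCAAT motif was chosen after the sequences were seen. The share of all windows that hold the run near these positions was not computed, so the shared place has no background. The windows of both proteases are shown for contrast and hold no CCAAT on either strand, so they carry no capitals.
Mmp20 (chr9:7627981-7628280, forward strand): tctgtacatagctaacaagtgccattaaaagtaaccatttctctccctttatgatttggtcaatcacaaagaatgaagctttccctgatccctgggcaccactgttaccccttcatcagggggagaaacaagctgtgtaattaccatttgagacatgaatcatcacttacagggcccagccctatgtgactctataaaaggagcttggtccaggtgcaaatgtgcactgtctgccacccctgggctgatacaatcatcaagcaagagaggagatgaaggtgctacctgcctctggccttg
Klk4 (chr7:43880910-43881209, forward strand): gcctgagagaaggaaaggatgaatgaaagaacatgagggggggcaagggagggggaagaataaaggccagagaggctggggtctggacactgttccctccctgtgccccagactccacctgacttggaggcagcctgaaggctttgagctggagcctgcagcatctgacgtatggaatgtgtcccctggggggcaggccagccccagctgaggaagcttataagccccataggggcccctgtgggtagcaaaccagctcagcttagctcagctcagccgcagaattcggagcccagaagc

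Another 4 motifs, of factors known in tooth epithelium or of core promoters, were searched on both strands. The TATA box TATAAA, in 13.6% of all windows, was found in *Amelx* at -31 to -26, in *Enam* at -137 to -132 and in *Mmp20* at -58 to -53. CTTTGA, the core of the TCF/LEF motif, was found in *Amelx*, *Ambn*, *Enam* and *Klk4* and in 5257 of all 32851 windows. In *Ambn* it lies at -228 to -223 and at -52 to -47, where it shares 2 bases with the first GATTGG. The RUNX core TGTGGT, in 16.8% of all windows, was found in *Odam*, and TTGCG, one arm of the CEBP motif, in 17.4%, was found in *Fam20a*. A match is a description of the letters and not a site of binding. *Fam83h* had no window in the table.

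**Figure D1:**
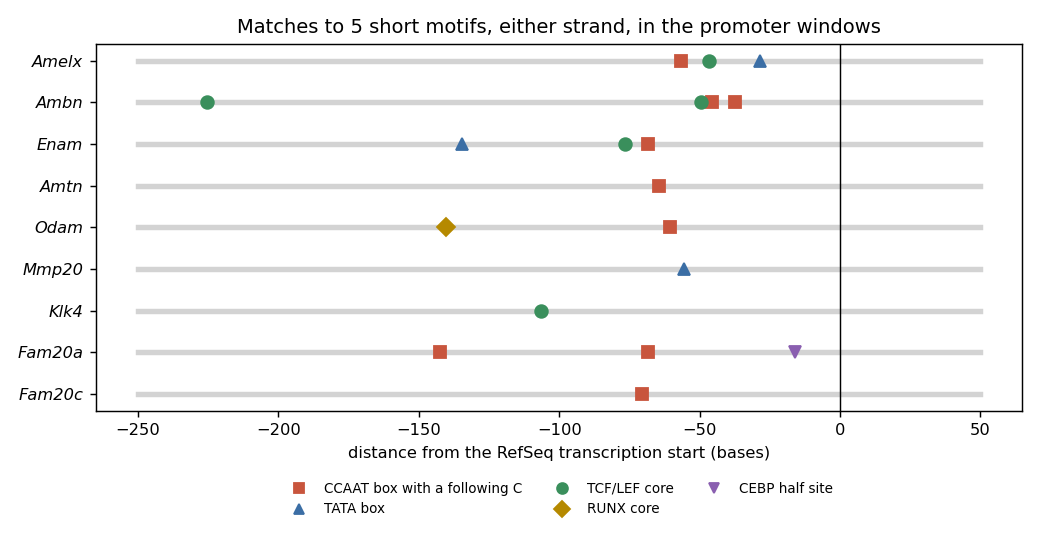
Positions of 5 motifs in the promoter windows of 9 enamel genes, as the distance in bases from the RefSeq transcription start (vertical line), with one grey bar for each window. The red squares, the CCAAT box with a following C, stand between -73 and -35 in all 5 matrix genes, *Fam20a* and *Fam20c*, and *Fam20a* has another farther upstream.

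The unit of the values is TPM, transcript numbers scaled to a fixed total per library, which is per transcript length and so allows levels of different genes to be compared within a library. TPM keeps no sequencing depth, so counting error cannot be given. The epithelial keratins *Krt5* and *Krt14* were at 1945 to 3713 and 2190 to 2773 TPM over the 6 libraries, and the 10 epithelial markers summed to between 6653 and 9585 TPM. Mesenchymal RNA was also present. The 14 mesenchymal markers, of which *Col1a1* and *Col1a2* were the highest, summed to 3225 to 5827 TPM in control pools, against 3950 to 4334 TPM in cKO pools. The muscle markers summed to at most 2.10 TPM. In such bulk samples, fewer cells of a type and less RNA per cell cannot be told apart.

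*Amelx* had the highest level of all genes in every library. It was 170792, 163351 and 203538 TPM in control pools 1, 2 and 3, against 163658, 85454 and 178807 TPM in cKO pools 1, 2 and 3. cKO replicate 2 was at 47.7% of the control mean, whereas the other cKO libraries were at 91.3% and 99.8%, within the control range. The control mean was 179227 ± 21380 TPM (SD, n = 3), the cKO mean was 142639 ± 50100.2 TPM (SD, n = 3), and the groups overlapped (exact two-sided permutation test, p = 0.5). In this test 3 libraries against 3 cannot give a p below 0.1. On the log2(TPM + 1) scale used for all fold changes here, the difference was -0.39 with a 95% confidence interval of -1.14 to 0.35 (limma, unadjusted p = 0.251).

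*Ambn*, whose protein holds ameloblasts to the matrix, was the only one of the 10 genes whose groups did not overlap. It was 31405, 32180.3 and 33061 TPM in control pools 1, 2 and 3, against 24646, 8562 and 26263 TPM in cKO pools 1, 2 and 3. Of the 13719 genes tested, which averaged 1 TPM or more, 9.64% had groups that did not overlap, 6.13% with the cKO lower and 3.51% with the cKO higher, so that 1 of 10 is near the background. On average the cKO pools were at 61.5% of the controls, with a log2 fold change of -0.86 and a 95% confidence interval of -1.85 to 0.12 (limma, unadjusted p = 0.0766). Without cKO replicate 2 they were at 79.0%, and the log2 fold change was -0.34 (limma, unadjusted p = 0.154).

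*Enam*, the largest and least abundant of the secretory matrix proteins, was 3861, 4084 and 2301 TPM in control pools 1, 2 and 3, against 2506, 1699 and 3022 TPM in cKO pools 1, 2 and 3. Control replicate 3 lay below cKO replicates 1 and 3, so that the groups overlapped, and the log2 fold change was -0.50 with a 95% confidence interval of -1.19 to 0.20 (limma, unadjusted p = 0.136). In the control means, *Amelx* was 5.56 times *Ambn*, and *Ambn* was 9.43 times *Enam*. The 5 matrix genes together took 20.8%, 20.2% and 24.2% of all TPM in control pools 1, 2 and 3, against 19.4%, 9.72% and 21.1% in cKO pools 1, 2 and 3 (exact two-sided permutation test, p = 0.3). The mean share was 21.7 ± 2.16% (SD, n = 3) among controls, against 16.7 ± 6.13% (SD, n = 3) among cKO pools, or 20.2% without cKO replicate 2.

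The maturation-stage proteins stood far apart in level. *Amtn* was 3.19, 3.48 and 3.37 TPM in control pools 1, 2 and 3, against 2.51, 0.97 and 3.19 TPM in cKO pools 1, 2 and 3, and the highest cKO library equalled the lowest control library. Its log2 fold change was -0.50 with a 95% confidence interval of -1.26 to 0.25 (limma, unadjusted p = 0.162). *Odam* was 320, 346 and 226 TPM in control pools 1, 2 and 3, against 283, 294 and 244 TPM in cKO pools 1, 2 and 3. All cKO values of *Odam* lay within the control range, and cKO replicate 2, so low in *Amelx* and *Ambn*, was at 98.9% of its control mean. The log2 fold change of *Odam* was -0.10 with a 95% confidence interval of -0.56 to 0.36 (limma, unadjusted p = 0.627).

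**Figure D2:**
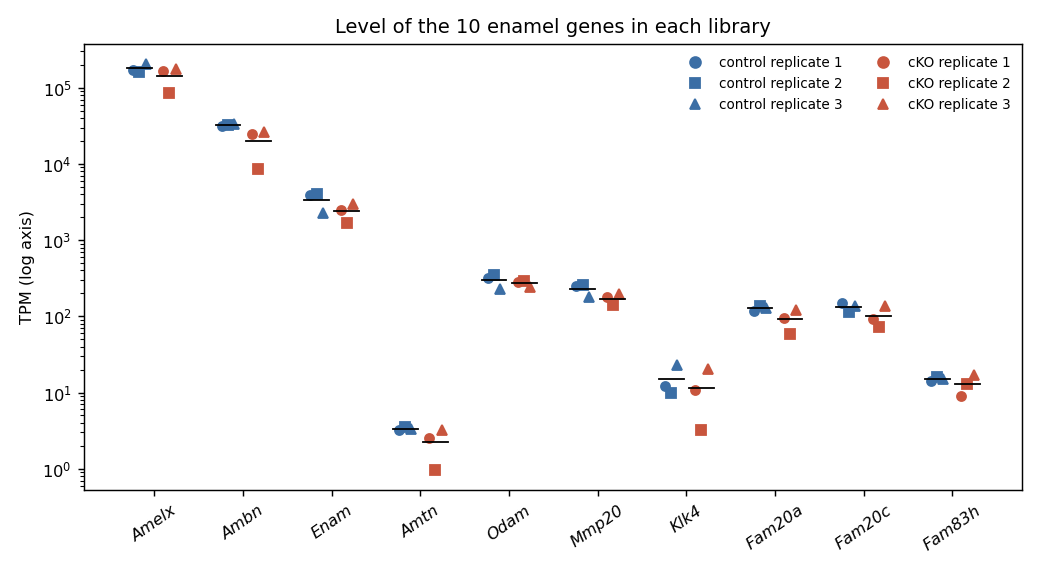
TPM of each of the 10 genes on a log axis, with one point for each library (blue for control, red for cKO, symbols for the replicate number) and a black line at each group mean. From *Amelx* to *Amtn* the control means run from 179227 to 3.35 TPM, and cKO replicate 2 is the lowest library for 8 of the 10 genes.

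Both proteases were present at PN2.5, at unequal levels. *Mmp20* was 252, 255 and 178 TPM in control pools 1, 2 and 3, against 178, 140 and 195 TPM in cKO pools 1, 2 and 3. Control replicate 3 lay inside the cKO range, and on average the cKO pools were at 75.1% of the controls. The log2 fold change was -0.41 with a 95% confidence interval of -0.89 to 0.08 (limma, unadjusted p = 0.0874). *Klk4* was 12.2, 9.82 and 23.0 TPM in control pools 1, 2 and 3, against 10.8, 3.19 and 20.2 TPM in cKO pools 1, 2 and 3. The libraries of replicate 3 were the highest and cKO replicate 2 the lowest, so that the spread within each group, with an SD of 46.9% of the mean in the control and 74.9% in the cKO, exceeded the difference between the groups. The log2 fold change of *Klk4* was -0.57 with a 95% confidence interval of -1.96 to 0.82 (limma, unadjusted p = 0.367). In the control means, *Mmp20* was 15.2 times *Klk4*. For each 1000 TPM of *Mmp20* there were 48.4, 38.5 and 129 TPM of *Klk4* in the control pools, against 60.4, 22.7 and 104 TPM in the cKO pools (exact two-sided permutation test, p = 0.9).

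The kinase *Fam20c* and its partner *Fam20a* had like levels. *Fam20c* was 149, 113 and 135 TPM in control pools 1, 2 and 3, against 92.3, 72.3 and 137 TPM in cKO pools 1, 2 and 3. *Fam20a* was 118, 135 and 128 TPM in control pools 1, 2 and 3, against 94.2, 58.3 and 122 TPM in cKO pools 1, 2 and 3. In both genes cKO replicates 1 and 2 lay below every control library and cKO replicate 3 lay inside the control range. The log2 fold changes were -0.43 for *Fam20c* (95% confidence interval -1.02 to 0.16, limma, unadjusted p = 0.129) and -0.53 for *Fam20a* (95% confidence interval -1.15 to 0.09, limma, unadjusted p = 0.0843). The log2 ratio of *Fam20a* to *Fam20c* within a library was -0.05 ± 0.30 (SD, n = 3) among controls, against -0.15 ± 0.17 (SD, n = 3) among cKO pools (exact two-sided permutation test, p = 0.7). *Fam83h* was 14.2, 15.8 and 14.9 TPM in control pools 1, 2 and 3, against 8.88, 13.1 and 16.8 TPM in cKO pools 1, 2 and 3. Its lowest library was cKO replicate 1, not cKO replicate 2, and its groups overlapped. Its log2 fold change was -0.24 with a 95% confidence interval of -0.81 to 0.34 (limma, unadjusted p = 0.364). It was -0.0080 without cKO replicate 1 and -0.025 with a correction for GC content and transcript length.

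Over the 10 genes, the mean was lower in the cKO for all 10, where 60.3% of all genes tested had a log2 fold change below 0. The median log2 fold change was -0.46 over the 10 genes and -0.07 over all genes tested. With the libraries not paired, none of the 10 met the study's criteria for differential expression. These were an unadjusted p below 0.05 with a difference of more than 20% from the control. Of all genes tested, 4.02% met them, 2.47% lower and 1.55% higher in the cKO. By limma, 0 of the 10 had an unadjusted p below 0.05, and the test named by the study, run on the TPM itself, also gave 0. The Benjamini-Hochberg adjusted p from limma was 1.00 for each of the 10, and 0.0146% of all genes tested had one below 0.05. The 95% confidence interval reached above 0 for each of the 10, and its lower end was between -1.96 for *Klk4* and -0.56 for *Odam*. With same-numbered libraries as a block, 1 of the 10 met the criteria, *Ambn* (limma, unadjusted p = 0.0301). In that fit 9.59% of all genes tested met them. What the replicate numbers share is not given.

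One library carried much of the difference. cKO replicate 2 was the lowest of the 6 libraries for 8 of the 10 genes, and for 5.999% of all genes tested. The exceptions were *Odam* and *Fam83h*. TPM has a fixed total, so a lower *Amelx* leaves more TPM to other genes. Genes outside the 10 took 891450 TPM in cKO replicate 2, against 750049 to 792471 TPM in the other libraries. In cKO replicates 1, 2 and 3, 69.1%, 41.0% and 69.7% of all genes tested were below the control mean. The part of this in the 5.999% was not tested. The mean of cKO replicates 1 and 3 was 4.86 times the level in cKO replicate 2 for *Klk4*, 2.97 times for *Ambn*, 2.94 times for *Amtn*, 2.00 times for *Amelx* and 1.33 times for *Mmp20*. Without cKO replicate 2, *Amelx* had a log2 fold change of -0.06, *Enam* of -0.27, *Amtn* of -0.18, *Mmp20* of -0.27, *Fam20a* of -0.24 and *Fam20c* of -0.22. That of *Klk4* was then 0.07, and the median over the 10 genes was -0.23, beside -0.16 over all genes tested. Leaving out cKO replicate 3 instead gave 3 genes that met the criteria, *Ambn*, *Fam20a* and *Fam20c*, with log2 fold changes of -1.15, -0.77 and -0.68, in a fit where 6.93% of all genes tested met them. Leaving out control replicate 3 gave 2, *Enam* at -0.76 and *Mmp20* at -0.58, where 8.45% of all genes tested met them.

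**Figure D3:**
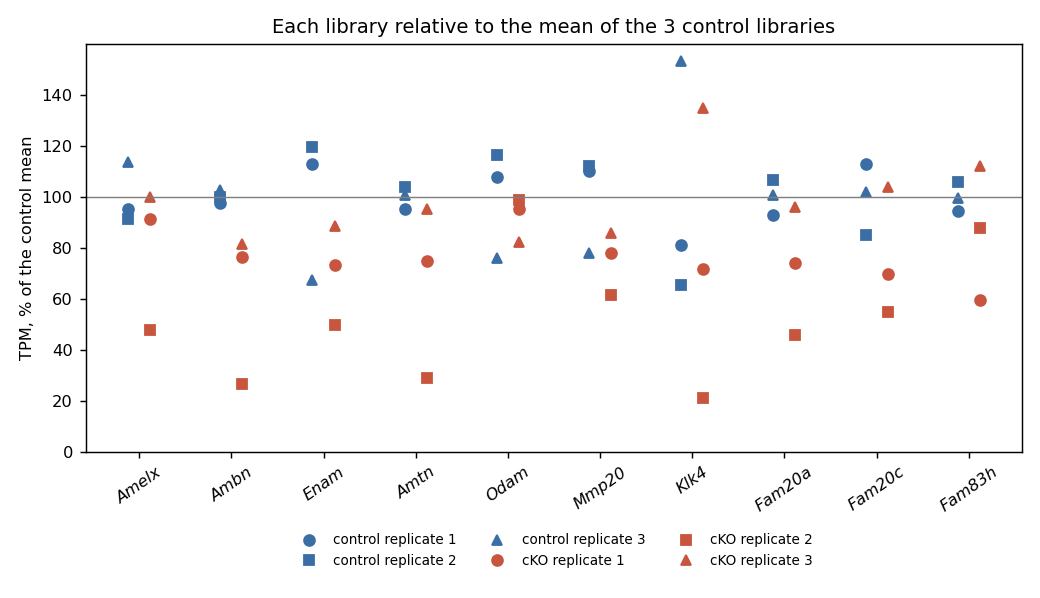
TPM of each library as a percentage of the control mean of the same gene (grey line at 100), with one point for each library. cKO replicate 2 (red squares) stands at 21.3% for *Klk4* and 26.6% for *Ambn* but at 98.9% for *Odam*, and the control libraries of *Klk4* spread from 65.5% to 153%.

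**Figure D4:**
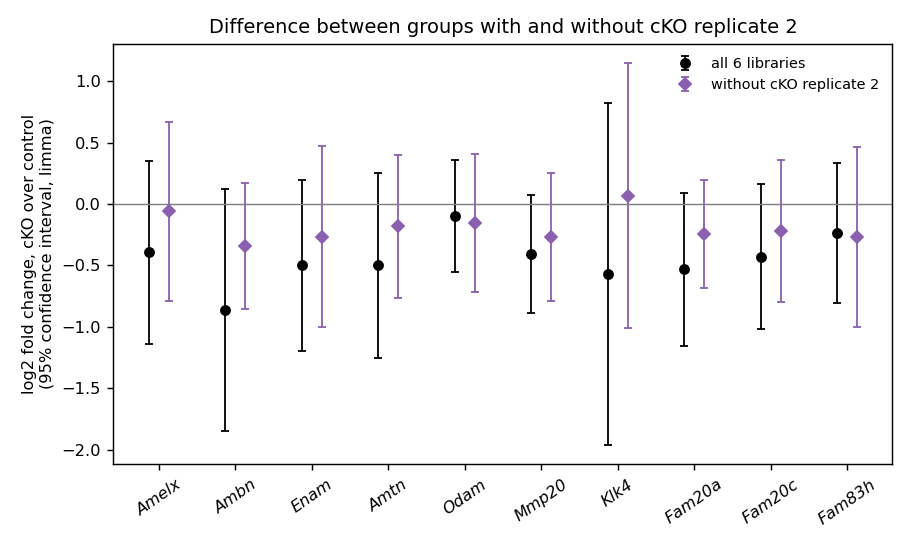
Log2 fold change of each gene, cKO over control, with its 95% confidence interval from limma, over all 6 libraries (black) and without cKO replicate 2 (purple). Each interval includes 0, and the value of *Ambn* is -0.86 with that library and -0.34 without it.

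In cKO replicate 2 *Krt14* was 2324 TPM and the 10 epithelial markers summed to 7151 TPM, inside the control range of 7025 to 9585 TPM. Most of that sum was the keratins *Krt14*, *Krt5* and *Krt17*. *Krt5*, *Dsp* and *Jup* lay below every control library there, *Epcam* and *Perp* above, and the other epithelial markers inside the control range. *Dsp* was 70.8 TPM, against 93.2 to 145 TPM in the control, and *Epcam* was 157 TPM, against 55.8 to 104 TPM. The mesenchymal markers of cKO replicate 2 summed to 4334 TPM, also inside the control range, but most of that sum was *Col1a1* and *Col1a2*, at 2309 and 1354 TPM. *Lum*, *Postn*, *Barx1*, *Sp7*, *Runx2* and *Twist1*, named after their values were seen, were above every control library in cKO replicate 2. *Lum* was 108 TPM there, against 23.9 to 81.9 TPM in the control. *Pdgfrb* lay below every control library, and the other tested mesenchymal markers lay inside the control range. The dentin matrix gene *Dspp* was 912 TPM in cKO replicate 2, against 352 to 1302 TPM in the control. Of the odontoblast markers, *Dmp1*, *Ibsp* and *Bglap* were above every control library there, and the others lay inside the control range. *Dmp1* was 126 TPM in that library, against 62.2 to 122 TPM in the control. Among genes of bone and bone resorption, chosen after their values were seen, *Mmp13* was 62.6 TPM in that library and between 0 and 19.9 TPM in the others, and *Spp1* was 120 TPM against 4.81 to 47.0 TPM. *Ctsk* was 55.0 TPM in cKO replicate 2 and 6.27 to 41.5 TPM in the other libraries. *Bglap* was not highest there, at 686 TPM, against 1089 and 738 TPM in cKO replicates 1 and 3. Over the groups, the 7 red cell genes summed to 1328 to 1979 TPM in control pools and 1161 to 1284 TPM in cKO pools, without overlap, and the 8 endothelial genes to 84.8 to 134 TPM and 70.2 to 102 TPM. The part of these differences in the enamel gene levels was not tested. Since *Amelx* is X-linked, the makeup of the pools was also checked. *Ddx3y*, on the Y chromosome, was 11.0, 16.3 and 5.97 TPM in the control pools, against 14.6, 23.7 and 4.29 TPM in the cKO pools, and *Xist* was 53.0, 127 and 8.07 TPM in the control pools, against 21.7, 31.8 and 7.80 TPM in the cKO pools. Their part in the level of *Amelx* was not tested.

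A ratio of 2 genes within a library does not depend on how that library was scaled. The log2 ratios tested were of TPM + 1, so those of genes at low TPM, such as *Amtn* and *Klk4*, still depend on it in part. For each 1000 TPM of *Amelx* there were 184, 197 and 162 TPM of *Ambn* in the control pools, against 151, 100 and 147 TPM in the cKO pools, so that the groups did not overlap. The difference of the log2 ratios was -0.47 with a standard error of 0.21 (exact two-sided permutation test, p = 0.1, and 0.9 after Benjamini-Hochberg adjustment over the 9 ratios). It was -0.28 without cKO replicate 2. The other 8 ratios to *Amelx* overlapped between the groups. The share of all genes tested whose ratio to *Amelx* does not overlap was not computed, so 1 of 9 has no background. For each 1000 TPM of *Amelx* there were 22.6, 25.0 and 11.3 TPM of *Enam* in the control pools, against 15.3, 19.9 and 16.9 TPM in the cKO pools. On the same scale *Odam* was 1.87, 2.12 and 1.11 TPM in the control pools, against 1.73, 3.44 and 1.37 TPM in the cKO pools, highest in cKO replicate 2.

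Across the 6 libraries, *Klk4* took the same order as *Amelx*, from cKO replicate 2 at the bottom through control replicate 2, cKO replicate 1 and control replicate 1 to cKO replicate 3 and control replicate 3 at the top. On the log2 scale, Pearson's r was 0.95 (exact permutation p = 0.00139, adjusted 0.0125 over 9 genes) and Spearman's rho was 1.00 (exact permutation p = 0.00278, adjusted 0.025 over 9 genes). With cKO replicate 2 and control replicate 3 left out, the 2 libraries farthest from the median of *Amelx*, r was 0.96 over the other 4. *Ambn*, *Amtn* and *Fam20a* had r of 0.96, 0.96 and 0.92 with *Amelx*, but -0.18, 0.26 and 0.22 without those 2 libraries, so that these relations rest on them. Their exact permutation p for r were 0.0444, 0.0361 and 0.0472, each 0.085 after adjustment over the 9 genes. *Fam20c* had an r of 0.84 and then 0.75, with a rho of 0.71 (exact permutation p = 0.136). *Odam* had an r of -0.34 and a rho of -0.71 (exact permutation p = 0.136). *Enam*, *Mmp20* and *Fam83h* had r of 0.59, 0.59 and 0.19. The points share the scaling of their library, and none of the relations but that of *Klk4* was below 0.05 after adjustment over the 9 genes. These permutations treated the 6 libraries as exchangeable and took no account of group or replicate number. In both groups *Amelx* and *Klk4* were lowest in replicate 2 and highest in replicate 3, so the p-values for *Klk4* may be too small.

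**Figure D5:**
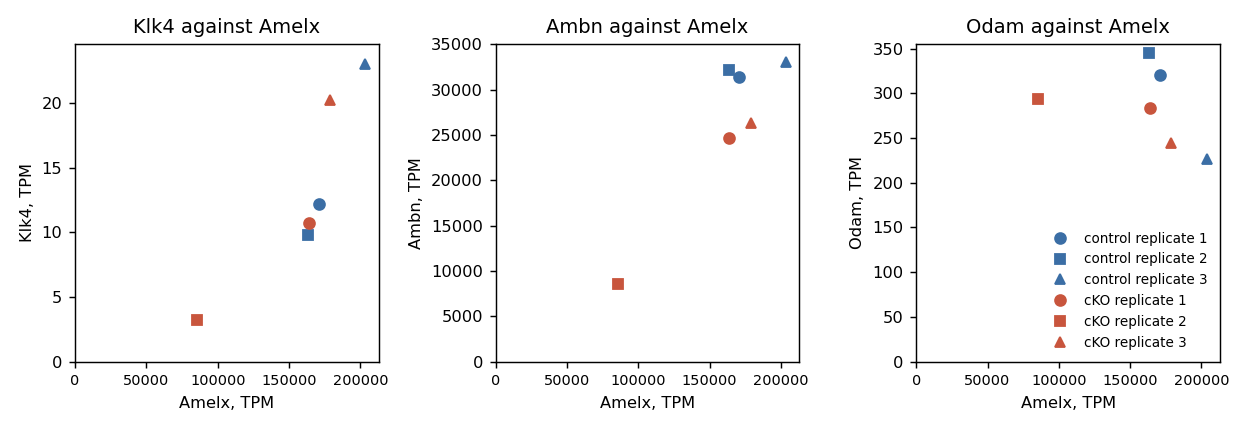
TPM of *Klk4*, *Ambn* and *Odam* against TPM of *Amelx*, with one point for each library (blue for control, red for cKO). *Klk4* takes the same order as *Amelx* in all 6 libraries, *Ambn* separates the groups, and *Odam* is at 294 TPM in the library where *Amelx* is lowest.

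Of the 7367 genes averaging 10 TPM or more, 17 had an r of 0.95 or more with *Amelx* over the 6 libraries, *Amelx* itself included. The closest outside the enamel genes were *Cst6*, a cystatin, *Steap1*, *Plpp1*, a phospholipid phosphatase, *Npl*, an enzyme of sialic acid breakdown, and *Rab38*, a small GTPase, with r from 0.986 to 0.988. *Cst6* was 91.6, 83.5 and 119 TPM in control pools 1, 2 and 3, against 93.7, 9.18 and 95.4 TPM in cKO pools 1, 2 and 3, lowest in cKO replicate 2 like *Amelx*. The closest to *Klk4* were *Npl*, *Ckb*, *Plpp1*, *Gal3st4* and *Tmem38a*, with r from 0.979 to 0.983. *Ckb*, the brain form of creatine kinase, was 525, 471 and 651 TPM in control pools 1, 2 and 3, against 462, 351 and 578 TPM in cKO pools 1, 2 and 3.

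Other genes of enamel defects and of ameloblasts were taken as a list of 22, of which 21 were tested. Of these, 0 were called higher and 2 were called lower under the study's criteria, beside 2.47% of all genes tested called lower, 16 had a log2 fold change below 0, and the median was -0.29. The 2 were *Lama3*, a laminin chain of the basement membrane, at 169, 159 and 128 TPM in the control pools, against 91.9, 48.0 and 135 TPM in the cKO pools (limma, unadjusted p = 0.0495), and *Col17a1*, a collagen of hemidesmosomes. *Col17a1* was 162, 145 and 138 TPM in the control pools, against 95.7, 109 and 123.1 TPM in the cKO pools, without overlap (limma, unadjusted p = 0.0249). The adjusted p from limma was 1.00 for both. *Sp6*, a transcription factor of ameloblasts and among the highest genes of the list, had a control mean of 474 TPM and a cKO mean of 468 TPM. *Acp4*, an acid phosphatase of secretory ameloblasts, was at 364 to 475 TPM in control pools, against 145 to 370 TPM in cKO pools, and it was named after its values were seen.

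Of 19 genes of the maturation stage, 12 were tested, 0 were called higher and 2 were called lower, again beside 2.47% of all genes tested. These were the anion exchanger *Slc4a2*, at 82.5, 92.0 and 90.8 TPM in the control pools, against 47.8, 48.5 and 76.3 TPM in the cKO pools, and the bicarbonate cotransporter *Slc4a4*, at 56.2, 68.0 and 41.4 TPM in the control pools, against 38.0, 32.0 and 33.3 TPM in the cKO pools. Neither overlapped between the groups (limma, unadjusted p = 0.0177 for *Slc4a2* and 0.0182 for *Slc4a4*), as for 6.13% of all genes tested, the adjusted p from limma was 1.00 for both, and the median of the list was -0.16. *Wdr72*, needed for enamel maturation, was at most 1.5 TPM. The calcium exchanger *Slc24a4* averaged below 1 TPM and so was not tested. It was at 0.39 to 0.57 TPM in control pools, against 0.11 to 0.19 TPM in cKO pools. *Lamp1*, a lysosomal protein, was the highest of this list, at 345 to 456 TPM. *Wdr72* and *Slc24a4* were named after their values were seen. Of 9 genes of the stratum intermedium, the layer beside the ameloblasts, 6 were tested. Of these, 1 was called lower, again beside 2.47% of all genes tested. It was *Notch1*, a receptor of the Notch pathway, at 12.6 to 18.7 TPM in control pools and 5.44 to 11.2 TPM in cKO pools, with an adjusted p of 1.00 from limma. *Alpl*, the alkaline phosphatase of that layer, was 213 to 348 TPM in control pools, against 181 to 299 TPM in cKO pools, and *Cldn1* was 177 to 217 and 84.9 to 180 TPM. Of 8 genes of the inner enamel epithelium, 7 were tested and 0 were called, by limma with 0 at an unadjusted p below 0.05, and the highest were *Cdkn1a* and *Shh*.

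The secreted phosphoprotein family to which the matrix genes belong also includes dentin, bone and milk proteins. Of 16 such genes and their neighbours, 7 were tested and 0 were called, with 0 at an unadjusted p below 0.05 by limma, and 6 were listed at 0 in every library, among them the caseins *Csn1s1* and *Csn2*, named after their values were seen. *Sparc*, a collagen-binding matrix protein, was the highest, at 1197 to 1774 TPM. Of 12 symbols of secretory pathway kinases, 7 were in the table, 5 were tested and 0 were called, with 0 at an unadjusted p below 0.05 by limma. *Pkdcc*, a secreted tyrosine kinase, was 105, 117 and 138 TPM in the control pools, against 84.1, 106 and 113 TPM in the cKO pools, and *Fam20b*, the xylose kinase of the FAM20 family, was 32.3, 29.5 and 27.6 TPM in the control pools, against 20.9, 24.5 and 32.6 TPM in the cKO pools. Among markers of other cells, *Bglap* of odontoblasts and osteoblasts was called higher, at 392 to 618 TPM in control pools, against 686 to 1089 TPM in cKO pools. It was the only call among 8 odontoblast genes, beside 1.55% of all genes tested called higher. *Cdh5* and *Tek* of 8 tested endothelial genes, *Hbb-bs* of 5 tested red cell genes and the desmosome gene *Dsp* of 10 epithelial genes were called lower, beside 2.47% of all genes tested. The adjusted p from limma was 1.00 for each of these 5 genes, *Bglap* included. None of 4 tested leukocyte genes, 13 tested mesenchymal genes or 5 sex-linked genes was called, each list with 0 at an unadjusted p below 0.05 by limma. The part of these cells in the enamel gene levels was not tested.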

How the data were processed

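RNA-seq libraries of dental epithelium at PN2.5, 3 control and 3 cKO, were grouped and numbered by the sample titles. Reads were trimmed by the authors (SeqPrep, Sickle) and aligned with HISAT2. The methods name RSEM for gene abundance, while the submitters' processing notes name StringTie. The genome build is not given in the sources used here. The methods name FPKM, but the deposited values are TPM, with library sums of 983952 to 993946. Depth is unknown, so precision is limited by the number of libraries.

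The 13719 genes averaging 1 TPM or more were tested on log2(TPM + 1) with limma 3.58.1 in R 4.3.3, using the mean-variance trend, no block and Benjamini-Hochberg adjustment over all genes tested. The fit was tested on simulated data. Single values were compared by exact permutation. Positions are from GENCODE M21 for GRCm38, which holds 99.4% of the gene identifiers, and promoter windows are from RefSeq, for 9 of the 10 genes. The members, lists and tests were chosen with earlier results of these data known. Besides the 10 genes, the text names from each list the genes called (at most 4 by p), the 2 of highest mean, and the 5 genes most like *Amelx* and *Klk4*. Alternatives were other pseudocounts, filters, scalings and tests, correcting for GC content and transcript length, the replicate block and leaving out each library. Protein sequences were not analysed here, and 1 gene that this rule selects is not reported here.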

Additional observations from a re-analysis of the deposited data

How the results depend on the processing

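The precision is limited by 3 pools in each group, and the depth is unknown. The log2 fold changes of *Amelx*, *Ambn*, *Enam*, *Amtn*, *Mmp20*, *Fam20a*, *Fam20c* and *Fam83h* were below 0 in every alternative run. That of *Odam* was 0.071 when centred on the epithelial markers and ranged from -0.28 to 0.021 (without control replicate 2) on leaving out single libraries, and that of *Klk4* from -1.10 to 0.068 (without cKO replicate 2). Quantile normalization could give no value for *Amelx*, the highest gene of every library. The filter at a mean of 5 TPM left out *Amtn*. The study speaks of pairs of replicates without saying what a pair shares. The deposited columns carry the same set of numbers in both groups. The deviations of same-numbered libraries correlated at -0.08, 0.29 and 0.40 across genes for replicates 1, 2 and 3. Replicates 2 and 3 each correlated best with their own number, and replicate 1 did not. These values do not settle the pairing, and the main fit did not take the replicate numbers as pairing the libraries. With the replicate block, 1 gene of the 10 met the criteria, *Ambn*. It was again 1, *Ambn*, with the block plus correction for GC content and length. The limma unadjusted p of *Ambn* was 0.0301 and 0.0407 in these fits. With the block alone, the limma unadjusted p was 0.0515 for *Fam20c*, 0.0544 for *Fam20a* and 0.0651 for *Klk4*. It was 0.0905 or more for the other genes of the 10. The count ranged from 0 to 3 on leaving out single libraries.

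Over all genes tested, 552 met the criteria by limma, 213 higher and 339 lower, and 459 by Student's test on the TPM. The study itself reports fewer genes under these criteria than either count. The limma count was 940 without the filter and 890 after rescaling to all genes except the 10. It was 1315 with the block, 1110 with block plus correction, and 204 to 1159 without one library. Scaling moved the split of higher and lower calls to 324 and 325 with quantile normalization, 314 and 334 with median-ratio scaling, 102 and 636 after rescaling to protein-coding genes other than *Amelx* and *Ambn*, 153 and 737 after rescaling to all genes except the 10, 494 and 130 when centred on the epithelial markers, and 334 and 285 with the correction. In those fits the median over all genes went from -0.14 (all genes except the 10) to 0.10 (epithelial markers), beside -0.07, and that over the 10 genes from -0.54 to -0.29. Genes with an adjusted p below 0.05 numbered 2, and 4 with a pseudocount of 0.1, 1 without the filter, 4 with quantile normalization, 0 after rescaling to protein-coding genes (738 at an unadjusted p below 0.05), 1 when centred on the epithelial markers, 0 with Student's test (544 at an unadjusted p below 0.05), 4 with the block, 1 with block plus correction, and 2 to 9 without one library. The cause was not tested.

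The log2 difference of the summed matrix genes was -0.38, and -0.11 to -0.58 without one library, with -0.11 without cKO replicate 2. On leaving out single libraries, the differences of the log2 ratios to *Amelx* ranged from -0.46 to 0.11 for *Enam*, from -0.091 to 0.57 for *Odam*, from -0.28 to 0.14 for *Mmp20*, from -0.51 to 0.13 for *Klk4*, from -0.16 to 0.14 for *Fam20c* and from -0.21 to 0.52 for *Fam83h*, and that of *Klk4* to *Mmp20* from -0.59 to 0.34.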

Other observations

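Relatives of the enamel genes were read from the same table as a list of 22, of which 13 were tested and 0 met the study's criteria, by limma with 0 at an unadjusted p below 0.05. Among the kallikreins, *Klk10* was at 35.3 to 41.0 TPM in control pools, against 37.4 to 52.1 TPM in cKO pools, and *Klk8* was at 35.1 to 53.0 TPM and 27.8 to 48.8 TPM, both above *Klk4* in every library. *Klk5* and *Klk6* were listed at 0 in every library. Among the metalloproteinases, *Mmp14*, a membrane-bound enzyme, was 212, 172 and 157 TPM in the control pools, against 115, 154 and 152 TPM in the cKO pools, without overlap (limma, unadjusted p = 0.0917), at a level like that of *Mmp20*. This was 1 of the 13 relatives tested, beside 6.13% of all genes tested whose groups did not overlap with the cKO lower. Of the *Fam83* family, *Fam83g* at 16.6 to 37.7 TPM and *Fam83d* at 27.8 to 46.7 TPM lay above *Fam83h*, and *Fam83a*, *Fam83c* and *Fam83e* were below 1 TPM. *Klk8*, *Klk5*, *Klk6* and the *Fam83* genes were named after their values were seen.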
